A study of Bos taurus with 14 samples.

Results

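Cattle carry many microRNA (miRNA) names that were added to the catalogue from deep sequencing of bovine samples, and those from miR-2286 to miR-2489 form a large block of them. The block was taken here as every name bta-miR-N with N from that of miR-2286 to that of miR-2489 and any suffix, which leaves out the neighbouring family of miR-2284 and miR-2285. It held 129 of the 932 names in the 14 libraries, or 129 of 723 bovine names, and these came from 106 hairpins. A miRNA is cut from a hairpin precursor, either arm of which (5p or 3p) can give a short mature strand, and that strand guides a silencing complex to messenger RNAs. Ends vary by a base or more between copies, so an abundant miRNA is usually read as many distinct sequences. The number of distinct sequences behind a count therefore describes how broad its support is. The catalogue numbers record the order of naming and not kinship, so the members share no seed or function by rule, and the roles of most of them are not established.

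Blood came from 4 ruminally cannulated, non-lactating Holstein cows, each sampled while fed forage alone (FD, 0% concentrate) and later during week 1 on 65% concentrate (high grain, HG), a ration meant to induce subacute ruminal acidosis. Plasma gave 8 libraries (plasma FD and plasma HG, cows 1 to 4) and leucocytes, taken as the buffy coat, gave 6 (leucocytes FD and leucocytes HG, cows 1, 3 and 4). All cows received FD first and HG later, so diet and time cannot be told apart, and there was no group kept on forage. Plasma and leucocyte RNA were extracted with different kits, so kit and sample type cannot be told apart either.

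Reads assigned to miRNAs numbered 376589 to 4464702 per library in plasma and 21764579 to 66070770 in leucocytes. Levels are given as CPM, the adjusted reads of a name per 1e6 assigned reads. A count of 0 allows up to 3 reads, which is 0.672 to 7.97 CPM in plasma and 0.0454 to 0.138 CPM in leucocytes. These limits cover counting error only, because reads without molecular identifiers are not independent molecules. Summed over the 3 erythrocyte miRNAs of a marker list (miR-451, miR-144 and miR-486), levels were 28701 to 93440 CPM in plasma and 154131 to 298915 CPM in leucocytes, so the buffy coat libraries held much red cell RNA. The 6 leucocyte markers summed to 12734 to 24754 CPM in plasma and 19499 to 28822 CPM in leucocytes. The liver marker miR-122 ranged from 5170 to 61652 CPM in plasma and from 16.7 to 75.7 CPM in leucocytes, and the 2 vessel markers from 2291 to 5433 and from 46.7 to 206 CPM. The part of these cell types in the values below was not tested.

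All 129 members had reads in leucocytes, whereas 43 had reads in plasma and none was found in plasma alone. A member was counted as detected with at least 2 reads, the smallest count in the files. In plasma 86 members were detected in no library, 15 in 1 library and 10 in 2. The 4 members detected in all 8 plasma libraries were miR-2419-5p, miR-2478, miR-2332 and miR-2336. In leucocytes 67 members were detected in all 6 libraries and 26 in a single library. Of the 67, 26 had no read in any plasma library. The share of members found in every plasma library was 3.1%, close to the 3.51% of the recent bovine names miR-11970 to miR-12070, against 11.5% of the miR-2284/miR-2285 family and 55% of the remaining bovine names. In every leucocyte library it was 51.9%, the same as in the miR-2284/miR-2285 family, against 43.9% and 80.1%.

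Plasma on FD held 6, 13, 13 and 11 members in cows 1 to 4, and plasma on HG held 25, 16, 22 and 25. The lowest HG library was thus above the highest FD library. The mean was 10.8 ± 3.30 on FD and 22 ± 4.24 on HG (SD, n = 4 each). The difference of 11.3 ± 6.85 members had the same sign in 4 of 4 cows (exact two-sided sign-flip test, p = 0.13, the smallest that 4 cows allow, and 0.50 after adjustment over 12 such tests). Without the pairing of cows, which the plasma profiles do not themselves show, an exact permutation test gave p = 0.029, or 0.20 after adjustment over the 12. All bovine names other than the members were also more on HG, at 339 to 359 against 283 to 308 on FD. With every library brought to the expectation at the depth of the smallest library, the difference in members was 7.29.

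Of the 43 members seen in plasma, 21 were detected on FD and 41 on HG. The diets shared 19, while 22 were found on HG alone and 2 on FD alone. This split was not made over all names, so whether it is particular to the members was not tested. Bovine names other than the members were also more on HG, at 339 to 359 per library against 283 to 308. A member seen in a cow on FD was often missing in the same cow on HG or the reverse. Cow 1 held 6 members on both diets and 19 on a single diet, cow 2 held 8 and 13, cow 3 held 11 and 13, and cow 4 held 8 and 20. No member was detected in every FD library and missed in an HG library, whereas 5 were in every HG library and not in every FD library (miR-2411-3p, miR-2448-3p, miR-2454-3p, miR-2457 and miR-2484). Over all plasma names the authors also list ones found in every cow on HG but not in each on FD, and none particular to FD.

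Leucocytes held 102, 97 and 77 members on FD and 98, 95 and 91 on HG in cows 1, 3 and 4, and the groups overlapped. The difference of 2.67 ± 9.87 members was positive in 1 of 3 cows (exact two-sided sign-flip test, p = 1, where 0.25 is the smallest that 3 cows allow). Over both diets, 100 members were shared, 14 were on FD alone and 15 on HG alone, a split that was not made over all names. MiR-2467-5p was the member detected in every leucocyte FD library and in at most 1 HG library, at 4, 4 and 9 reads against 0, 0 and 2, always from 1 sequence. Its level is near the limit of detection, and a difference was not detectable at this depth.

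**Figure D1:**
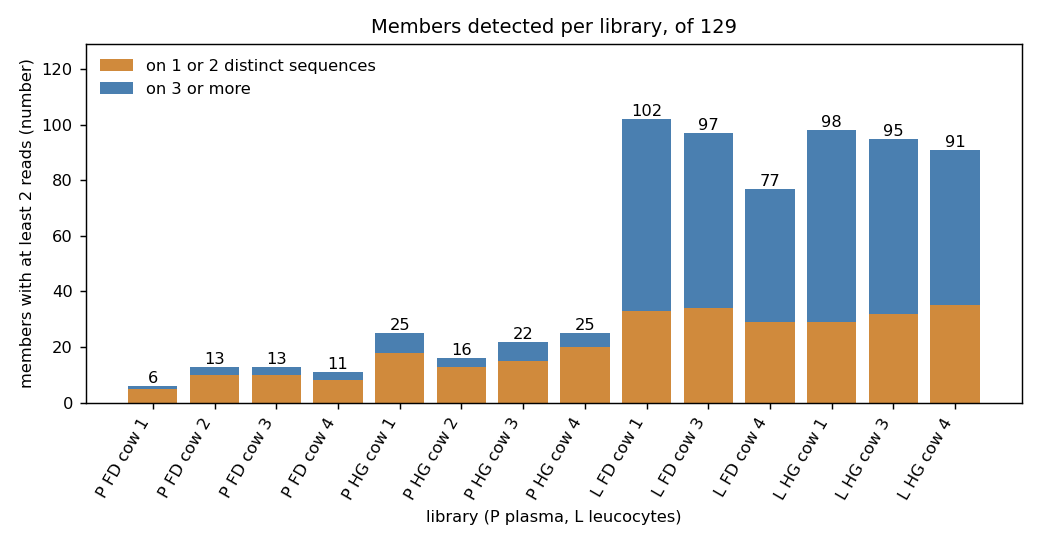
Number of members with at least 2 reads in each library, split into those on 1 or 2 distinct sequences and those on 3 or more, for plasma (P) and leucocytes (L) on both diets. The 4 plasma HG libraries hold 16 to 25 members and the 4 plasma FD libraries 6 to 13, while the leucocyte libraries hold 77 to 102, most of them on 3 or more sequences.

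Leucocyte libraries were deeper than plasma libraries of the same cow, and depth moved with the number of members. With the leucocyte libraries brought to the depth of the plasma library of the same cow and diet, 15.9, 40.7 and 54.5 members would be expected on FD in cows 1, 3 and 4, where plasma held 6, 13 and 11. On HG the expected numbers were 57.2, 33.0 and 55.9 in cows 1, 3 and 4, where plasma held 25, 22 and 25. Plasma thus held fewer members than expected of leucocytes at equal read depth in each of these pairs. The expectation draws reads as if they were independent, and it was not made for other bovine names. Whether the gap is particular to the members was therefore not tested. Each diet was also brought to the depth of its own smallest library among these cows, 376589 reads on FD and 1062846 on HG. Plasma then held 10.8 members fewer than leucocytes on FD and 13.7 fewer on HG. As counted it held 82 and 70.7 fewer (3 of 3 cows, exact two-sided sign-flip test, p = 0.25 on each diet). The depths differ, so the 2 gaps are not comparable between diets. In the leucocyte libraries, which are bulk samples, fewer cells of a type and less RNA per cell cannot be told apart.

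The plasma values were narrow in sequence. Of the members detected in a plasma library, 77.5% ± 4.38 on FD and 75.4% ± 6.30 on HG (SD, n = 4) rested on 1 or 2 distinct sequences, against 35% ± 2.65 and 33.9% ± 4.44 in leucocytes (n = 3). Diet did not move this share beyond its spread (plasma −2.12 ± 9.28 percentage points, exact two-sided sign-flip test, p = 0.75; leucocytes −1.11 ± 1.79 points, p = 0.50). Plasma exceeded leucocytes by 42.6 ± 7.99 points on FD and by 39.5 ± 4.34 points on HG, in 3 of 3 cows each (exact two-sided p = 0.25, the smallest possible).

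Low counts can hold few sequences, so values were also compared at like numbers of reads. Between 2 and 9 reads nearly every value rested on 1 or 2 sequences, whatever the group of names. Between 10 and 99 reads in plasma, 76.3% of 38 member values did, against 28.3% of 53 values of the miR-2284/miR-2285 family and 21.8% of 524 values of the remaining bovine names, while the names miR-11970 to miR-12070 stood at 75.0% of 20 values. At 100 or more reads in plasma the shares were 38.7% of 31 member values, 54.5% for the names miR-11970 to miR-12070, 18.2% for the miR-2284/miR-2285 family and 3.45% for the remaining names. In leucocytes 0 of 143 member values with 100 or more reads rested on so few sequences.

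The difference from other bovine names was tested over cows, with both plasma libraries of a cow pooled. Among plasma values of 10 or more reads, 57.8% ± 11.0 of the members' and 10.4% ± 1.86 of all other bovine names' rested on 1 or 2 sequences. The gap of 47.4 ± 9.22 percentage points was present in 4 of 4 cows (exact two-sided sign-flip test, p = 0.13, the smallest possible). Against the names miR-11970 to miR-12070 alone the members were lower by 6.98 ± 17.3 points, with 1 of 4 cows higher, so these blocks were not told apart. In leucocytes the gap to all other bovine names was 4.15 ± 2.25 points (3 of 3 cows, exact p = 0.25), and between 10 and 99 reads it was −2.59 points. The comparison was chosen after the values had been seen.

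**Figure D2:**
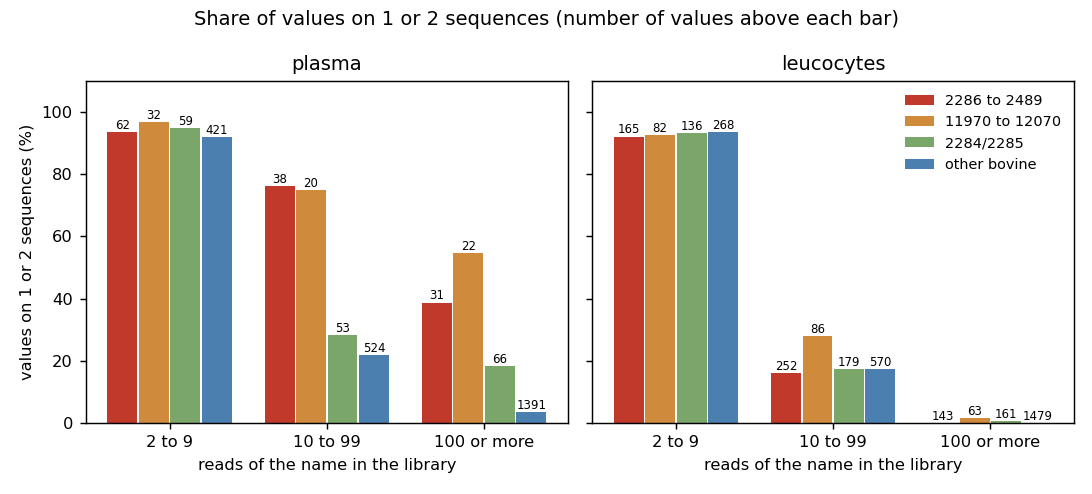
Percent of library values on 1 or 2 distinct sequences, by reads of the name in that library, for 4 groups of bovine names in plasma and leucocytes, with the number of values above each bar. At 10 to 99 reads in plasma the bars for miR-2286 to miR-2489 and miR-11970 to miR-12070 stand at 76.3% and 75.0%, and the other bars at 28.3% and 21.8%.

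The 8 plasma libraries held 131 member values above 0. Of these 62 had 2 to 9 reads, 10 had 10 to 29 reads and 59 had 30 or more. Apart from miR-2419-5p and miR-2478 there were 115 values, with 62, 10 and 43 in these classes. Counts were thus mostly very low or well above the minimum. Of the 59, 32 rested on 1 or 2 sequences and 20 on a single sequence. These 32 values belonged to 24 names, 18 of which had such a value in a single plasma library. On FD there were 8 of them and on HG 24, and by cow there were 8, 4, 6 and 14. All 24 names were also read in at least 5 leucocyte libraries. In CPM each of the 32 plasma values was above every leucocyte value of its name, although 30 reads alone already come to 6.72 CPM in the deepest plasma library and 79.7 CPM in the shallowest.

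Single names show this pattern. MiR-2397-5p (chromosome 26, inside GLRX3, a glutaredoxin gene) had 0, 2, 485 and 0 reads in plasma FD, 4, 0, 4 and 0 in plasma HG, and 275, 129 and 136 in leucocytes FD. The 485 reads of cow 3 came from 2 sequences, whereas the leucocyte reads came from 6 to 14. MiR-2399-5p had 166 plasma reads from 1 sequence in cow 4 on FD and 27 in cow 1 on HG, with 0 in the other plasma libraries. MiR-2376, which lies inside TAPBP, the gene of the tapasin chaperone of antigen loading, had 144 plasma reads from 1 sequence in cow 4 on HG and 2 in cow 1 on HG. In leucocytes it had 74 to 144 reads from 9 to 14 sequences in every library. MiR-2447 had 150 plasma reads from 1 sequence in cow 4 on FD, and at most 2 in any other plasma library, against 110 to 321 reads from 11 to 31 sequences in leucocytes. A high plasma count in these names was thus found in a single library and not across a diet.

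MiR-2483-5p (X chromosome) and miR-2454-3p had 30 or more reads from 1 or 2 sequences in 3 plasma libraries each. MiR-2483-5p had 167 reads in cow 2 and 72 in cow 3 on FD and 131 in cow 3 on HG, each from 1 sequence, 4 reads in cow 4 on HG, and 0 in the other 4 libraries. Its leucocyte libraries held 32 to 82 reads from 4 to 7 sequences. Cow 3 was the one with reads on both diets.

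**Figure D3:**
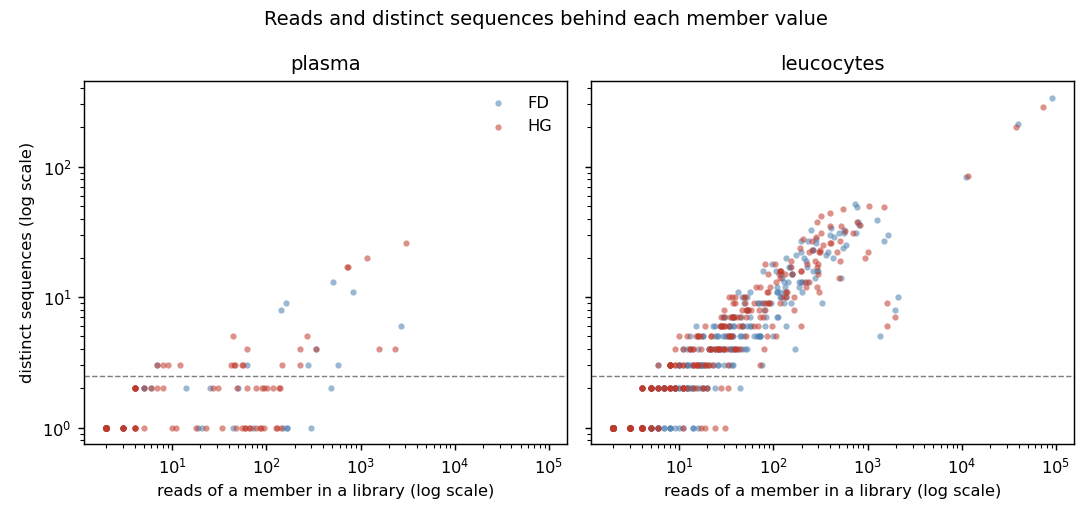
Reads of a member in a library against the number of distinct sequences behind them, both on log scales, with points below the dashed line on 1 or 2 sequences. In leucocytes the number of sequences climbs with the reads, while in plasma 32 points with 30 or more reads lie below the line.

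With miR-2419-5p included, the member share of all reads on bovine names differed little between sample types. It was 0.172% ± 0.0488 in plasma FD and 0.241% ± 0.0312 in plasma HG, and 0.202% ± 0.0784 and 0.208% ± 0.0970 in leucocytes. The plasma difference of 0.0692 ± 0.0737 points was positive in 3 of 4 cows (exact two-sided sign-flip test, p = 0.25), and the leucocyte difference was 0.00675 ± 0.0484 points (p = 0.75). Without miR-2419-5p the share in cows 1, 3 and 4 was 0.118% in plasma and 0.0433% in leucocytes on FD, higher in plasma in 2 of 3 cows. On HG it was 0.145% and 0.0452%, higher in plasma in 3 of 3 cows (exact two-sided sign-flip test, p = 0.50 on FD and 0.25 on HG). A few names made up most of the member share. MiR-2419-5p gave 40.3% and miR-2478 29.9% of the members' mean CPM in plasma, and 78.0% and 3.93% in leucocytes. By mean CPM, 2 members exceeded 100 in plasma and 1 in leucocytes, while 92 of the 129 lay under 1 in leucocytes.

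MiR-2419-5p (UMD3.1 chromosome 4, 66346479 to 66346500, minus strand) was the most abundant member by mean CPM in both sample types. In plasma, miR-2478 exceeded it in cow 4 on both diets and miR-2454-3p did in cow 2 on FD. Coordinates are those of the library files. In all 59 bovine pairs of arms in these files the 5p arm has the lower coordinate, on either strand, so on the minus strand a mature position may be counted from the wrong end of its hairpin and locates the hairpin only. In RefSeq's ARS-UCD2.0 annotation no protein-coding or long non-coding gene spans this hairpin. In plasma the levels were 385, 361, 469 and 52.4 CPM on FD and 689, 754, 677 and 341 CPM on HG, in cows 1 to 4. HG was higher in each cow, although the lowest HG value lay within the FD range, and the fitted log2 difference of 0.89 ± 0.61 (SE) did not pass the test (edgeR quasi-likelihood test with Benjamini-Hochberg adjustment, adjusted p = 0.78). In leucocytes the levels were 1364, 698 and 514 CPM on FD and 1355, 953 and 421 CPM on HG in cows 1, 3 and 4. The order of the cows was the same on both diets, and the log2 difference between diets was 0.05 ± 0.14 (adjusted p = 0.94 by edgeR). It had 8 to 26 distinct sequences in plasma and 83 to 339 in leucocytes, so it was broad in both.

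The other arm, miR-2419-3p, split the cows more sharply. Leucocytes of cow 1 held 1259 reads on FD and 1479 on HG, those of cow 3 held 556 and 520, and those of cow 4 held 12 and 14. Mean levels over the diets were 23.3, 11.6 and 0.530 CPM. Cow 4 was thus low on both diets, and this leucocyte library pair was also the shallowest, while miR-2419-5p in the same libraries stood at 468 CPM against 1359 CPM in cow 1. Plasma held 127 reads from 1 sequence in cow 1 on HG and at most 4 elsewhere.

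MiR-2478 (chromosome 9, 28046325 to 28046344, minus strand; outside the protein-coding and long non-coding genes of ARS-UCD2.0) had the reverse distribution between sample types. Plasma held 133, 44.1, 194 and 864 CPM on FD and 514, 235, 315 and 468 CPM on HG in cows 1 to 4, whereas leucocytes held 31.6, 34.6 and 62.9 CPM on FD and 30.2, 49.6 and 58.3 CPM on HG. In cows 1, 3 and 4 plasma was above leucocytes on both diets, by ratios of the means of 9.23 on FD and 9.39 on HG. The diets overlapped in plasma (log2 difference 0.66 ± 0.85, adjusted p = 0.95 by edgeR). Its plasma reads came from 2 to 6 sequences. In leucocytes 1369 to 2087 reads came from 5 to 10 sequences, fewer than in other members of that depth. The number of its leucocyte reads spanned 1.52-fold, the narrowest of the 67 members in all leucocyte libraries, while assigned reads spanned 3.04-fold, and its CPM was highest in cow 4 and lowest in cow 1.

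MiR-2332 (chromosome 19, 18582004 to 18582027, plus strand, inside UTP6, a gene for ribosomal RNA processing) had 14, 25, 19 and 21 reads in plasma FD, 57, 47, 45 and 63 in plasma HG, 28, 49 and 67 in leucocytes FD and 51, 46 and 51 in leucocytes HG. Its reads stayed between 14 and 67 in libraries whose depth spanned 175-fold. In CPM plasma was therefore higher, with 37.2, 17.5, 10.8 and 6.79 on FD and 12.8, 48.2, 42.3 and 18.5 on HG against 0.424 to 3.08 in leucocytes. Plasma rested on 1 to 4 sequences and leucocytes on 5 to 8. The tissue difference did not pass the edgeR test on either diet (log2 3.19 ± 1.66, adjusted p = 0.14 on FD, and 2.30 ± 1.47, adjusted p = 0.18 on HG), but it did by the DESeq2 Wald test (adjusted p = 0.025 and 0.0024).

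MiR-2336 (chromosome 19, 22824681 to 22824702, plus strand) held 24.9, 26.7 and 24.1 CPM in leucocytes FD and 18.7, 24 and 18.1 CPM in leucocytes HG. No HG library reached the lowest FD library, but the difference did not pass the test (log2 −0.33 ± 0.17, edgeR adjusted p = 0.43). In plasma miR-2336 was at 13.3, 4.2, 159 and 0.971 CPM on FD and 4.03, 11.3, 11.3 and 2.94 CPM on HG. The 159 CPM of cow 3 on FD were 279 reads from 3 sequences, and the other plasma libraries held 3 to 18 reads. The cow 3 value alone put the mean of plasma FD at 44.3 ± 76.5 CPM, and the plasma diets could not be told apart (log2 difference −0.82 ± 1.41, adjusted p = 0.95 by edgeR).

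MiR-2454-3p (chromosome 7, inside DNMT1, the maintenance DNA methyltransferase gene) had 0, 584, 0 and 0 reads in plasma FD and 228, 78, 89 and 31 in plasma HG, all from 2 or 3 sequences. It was read in every HG library and in 1 FD library, but that FD library held the highest level, at 409 CPM against 51.1, 80.0, 83.7 and 9.12 CPM on HG. The log2 difference was 5.32 ± 2.56 (edgeR, adjusted p = 0.56). Without the cow block it turned to −1.38, and the DESeq2 Wald test called it at 6.24 (adjusted p = 0.028). Leucocytes held 2.97, 4.43 and 6.66 CPM on FD and 5.37, 8.26 and 7.59 CPM on HG, from 17 to 42 sequences.

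MiR-2299-3p lies inside B3GLCT, a gene for a glucosyltransferase of protein glycosylation. It had 2, 0, 0 and 300 reads in plasma FD and 271, 0, 7 and 148 in plasma HG, and 305 to 594 reads in leucocytes. The 300 reads of cow 4 on FD came from 1 sequence and the 271 of cow 1 on HG from 5. Cow 2 had no read on either diet. In leucocytes the level was 8.99 to 16.8 CPM from 21 to 32 sequences.

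MiR-2448-3p and miR-2484 (X chromosome) were broad in leucocytes and sparse in plasma. MiR-2448-3p held 6.70, 13.4 and 9.33 CPM in leucocytes FD and 9.51, 19.6 and 10.7 CPM in leucocytes HG, from 11 to 38 sequences. Its plasma reads were 3, 0, 2 and 0 on FD and 3, 4, 5 and 118 on HG, so cow 4 on HG stood alone. MiR-2484 held 11.7, 13.1 and 12 CPM in leucocytes FD and 7.50, 10.3 and 9.37 CPM in leucocytes HG, and no HG library reached the lowest FD library (log2 −0.45 ± 0.19, edgeR adjusted p = 0.28). Its plasma libraries held 0, 0, 2 and 7 reads on FD and 6, 3, 7 and 2 on HG.

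**Figure D4:**
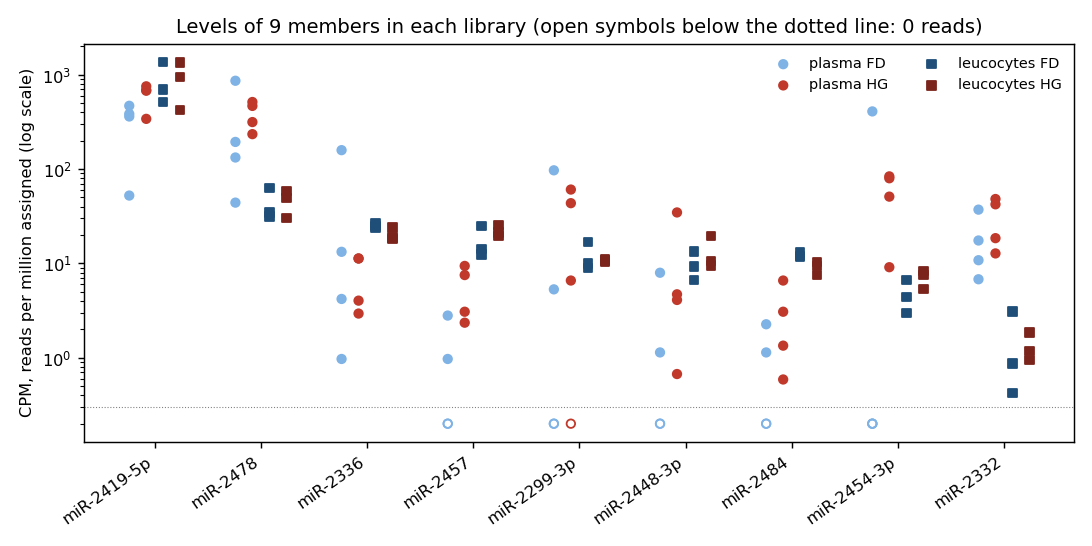
CPM of 9 members in each library on a log scale, with circles for plasma and squares for leucocytes, and open symbols below the dotted line for libraries with 0 reads. MiR-2478 and miR-2332 lie higher in plasma than in leucocytes, and miR-2454-3p on FD has a single plasma library with reads, at 409 CPM.

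In the plasma diet comparison edgeR tested 30 members among 536 names and called 0 of them, as it called 0% of all names at an adjusted p under 0.05. At an unadjusted p under 0.05 there were 9 members higher on HG and 0 lower, where 6.72% of all names were higher and 1.87% lower. The DESeq2 Wald test had 1 of 30 higher at that level, miR-2454-3p, which was also its single member called, and with at least 10 reads in 3 libraries edgeR had 1 of 8. The members' median log2 difference was 2.24 against 0.265 for all names tested, but 19 of the 30 reached the minimum of 10 reads on HG and not on FD. It was 0.71 by DESeq2 and 0.90 over the 8 members of the stricter filter, against 0.13 and 0.20 for all names. Most of these 9 rested on 1 or 2 libraries. MiR-2431-3p had 137 reads in cow 1 and 94 in cow 4 on HG and 0 in the other plasma libraries (log2 7.47 ± 2.32, adjusted p = 0.50). MiR-2411-5p had 48 and 60 reads in the same libraries, each from 1 sequence, and 0 elsewhere. MiR-2349 had 62 in cow 1 and 55 in cow 3. MiR-2308 had its 139 reads in cow 4 on HG alone and miR-2425-3p its 88 reads in cow 2 on HG alone.

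MiR-2411-3p, from the same hairpin as miR-2411-5p inside UBAP2L, was read in all HG plasma libraries at 55, 2, 4 and 103 reads and in 1 FD library at 2 reads. Its log2 difference was 4.57 ± 1.90 (edgeR, adjusted p = 0.50), and cows 1 and 4 supplied nearly all reads of both arms. MiR-2299-5p had 2, 2 and 60 reads in cows 2, 3 and 4 on HG and 0 on FD.

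In the leucocyte diet comparison edgeR tested 94 members among 779 names and called 0, where it called 1.8% of all names. At an unadjusted p under 0.05 there were 11 members higher on HG and 5 lower, where 7.45% of all names were higher and 7.45% lower. Each of these 16 moved the same way in 3 of 3 cows, but they were picked by a fit on the same cows, so this adds no support. The smallest adjusted p was that of miR-2318, a miRNA inside MADD, a gene of tumour necrosis factor receptor signalling. It had 0.348, 2.98 and 0.368 CPM on FD and 0.149, 0.358 and 0.109 CPM on HG (log2 −2.17 ± 0.52, adjusted p = 0.063 by edgeR). The groups overlapped, and the 2.98 CPM of cow 3 were 168 reads from 4 sequences.

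MiR-2320-3p, named for its low unadjusted p, had 3.45, 3.51 and 3.17 CPM on FD and 5.54, 6.19 and 6.06 CPM on HG. Every HG library was above every FD library, but the difference did not pass the test (log2 0.80 ± 0.21, adjusted p = 0.093 by edgeR). MiR-2336 and miR-2484 were split as fully in the other direction. Such splits were not counted over all names, so whether they are more frequent among the members was not tested. The sister arm miR-2320-5p had 6.21, 7.07 and 10.4 CPM on FD and 10.3, 7.93 and 11.3 CPM on HG (log2 0.34 ± 0.21, adjusted p = 0.50), and the groups overlapped. MiR-2454-3p had a log2 difference of 0.65 ± 0.22 and miR-2397-3p of 0.64 ± 0.21 (edgeR, adjusted p = 0.19 and 0.17).

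MiR-2411-5p lay below its FD range in 2 of 3 HG libraries, with 1.66, 2.16 and 3.35 CPM on FD and 0.914, 0.998 and 2.36 CPM on HG (log2 −0.83 ± 0.27, edgeR adjusted p = 0.16). MiR-2344, inside the tubulin folding cofactor gene TBCD, had 0.469, 1.93 and 1.33 CPM on FD and 0.373, 0.614 and 0.508 CPM on HG (log2 −1.14 ± 0.40, adjusted p = 0.20). MiR-2447 and miR-2400 had log2 differences of 0.54 ± 0.21 and 0.76 ± 0.29. Cow 4 decided the calls: without its libraries 12 members passed, 8 higher and 4 lower on HG, among them miR-2318, miR-2320-3p, miR-2397-3p, miR-2454-3p, miR-2411-5p and miR-2344 (edgeR, adjusted p between 1.83e-08 and 0.0304). That was 12 of 89 members, or 13.5%, where the same fit called 14.9% of all names. Only cows 1 and 3 then stood behind the test, and without cow 1 instead 1 member passed.

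Between plasma and leucocytes on FD (cows 1, 3 and 4) edgeR called 11 of 83 members, all lower in plasma, where it called 19% of all 743 names and 11.2% as lower in plasma. On HG it called 38 of 82, of which 37 were lower in plasma and 1, miR-2478, higher, where it called 43.3% of all 729 names, 10.2% as higher and 33.2% as lower. The members' median log2 difference was −6.20 on FD and −5.12 on HG, against −1.71 and −1.78 over all names tested. Many of these medians come from names at 0 in plasma, whose fitted differences are no bounds, and by DESeq2 the members' medians were −2.69 and −2.97. The counts turned on single cows and on scaling. Leaving out any 1 cow left 0 to 1 calls on FD and 0 to 3 on HG, and scaling by library size alone left 3 and 4. Without the block for cow there were 32 calls on FD, or 38.6% of the members tested, where that fit called 38.9% of all names.

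Among members lower in plasma on both diets by the test, at most 6 were named. They were miR-2419-5p, miR-2457, miR-2415-3p, miR-2320-5p, miR-2382-3p and miR-2397-3p. MiR-2457, inside the organic cation transporter gene SLC22A4, held 12.4, 14.1 and 25.1 CPM in leucocytes FD and 19.5, 21.2 and 25.7 CPM in leucocytes HG. Plasma of the same cows held 0, 0 and 0.971 CPM on FD and 9.41, 7.53 and 2.35 CPM on HG, so the groups did not overlap (log2 −6.06 ± 2.04 and −3.73 ± 1.07, edgeR adjusted p = 0.024 and 0.0027). MiR-2419-5p was lower in plasma in 3 of 3 cows on each diet (log2 −2.45 ± 0.69 and −2.36 ± 0.50, adjusted p = 0.0046 and 2.14e-05 by edgeR). In mean CPM, which takes library size alone, it was 2.84-fold lower on FD and 1.60-fold lower on HG. Scaling by library size alone moved the median log2 difference of all names by 0.64 on FD and 1.94 on HG. Alternatives with edgeR or DESeq2, including each cow left out, weakened all the names listed above. Their highest adjusted p was 0.180 to 0.475 on FD and 0.145 to 0.551 on HG.

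MiR-2415-3p held 6.48, 5.27 and 15 CPM in leucocytes FD and no plasma read in these cows on FD, which makes plasma at least 2.51-fold lower against a floor of 3 reads per library. On HG plasma held 4 reads, all in cow 3. MiR-2320-5p had no plasma read on FD in these cows, at least 2.23-fold lower, and 5 reads in cow 3 on HG. MiR-2382-3p, inside PGP, a phosphoglycolate phosphatase gene, had no plasma read on FD, at least 1.36-fold lower, and 2 reads on HG in cows 1, 3 and 4. For these low members plasma depth limits the size of the difference that can be stated.

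Of the 67 members in all leucocyte libraries, 16 (23.9%) had both libraries of cow 4 above the other 4 libraries, where 29.7% of all 657 names in every leucocyte library did. Both libraries of cow 4 lay below the others for 3 members (4.48%) and for 10.7% of all names. The libraries of cow 4 had the fewest assigned reads on both diets, so cow and depth cannot be told apart. MiR-2415-3p was among the 16, at 16.8 CPM in cow 4 against 7.70 in cow 1 and 6.37 in cow 3, as the mean of both diets.

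Both arms were listed in leucocytes for 22 hairpins, and 11 of these had the same larger arm in all 6 libraries. The 5p arm took 98.0% to 99.9% of the reads of miR-2419 and was also the larger in all 6 libraries for miR-2320, miR-2399, miR-2431 and miR-2483. The 3p arm was the larger in all 6 for miR-2299, miR-2368, miR-2382, miR-2415, miR-2448 and miR-2454. MiR-2415 gave 0 to 4.68% of its reads from the 5p arm, miR-2299 gave 5.86% to 9.29% and miR-2448 gave 2.80% to 12.9%. MiR-2397, miR-2411 and miR-2331 crossed 50% between libraries, at 30.5% to 68.3%, 32.5% to 80.2% and 38.2% to 75.5%. For miR-2411, singled out after its values were seen, the 5p share was lower on HG in each cow. It was 72.4%, 61.3% and 80.2% on FD and 49.5%, 32.5% and 69.9% on HG in cows 1, 3 and 4, which 3 cows cannot test below an exact p of 0.25.

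**Figure D5:**
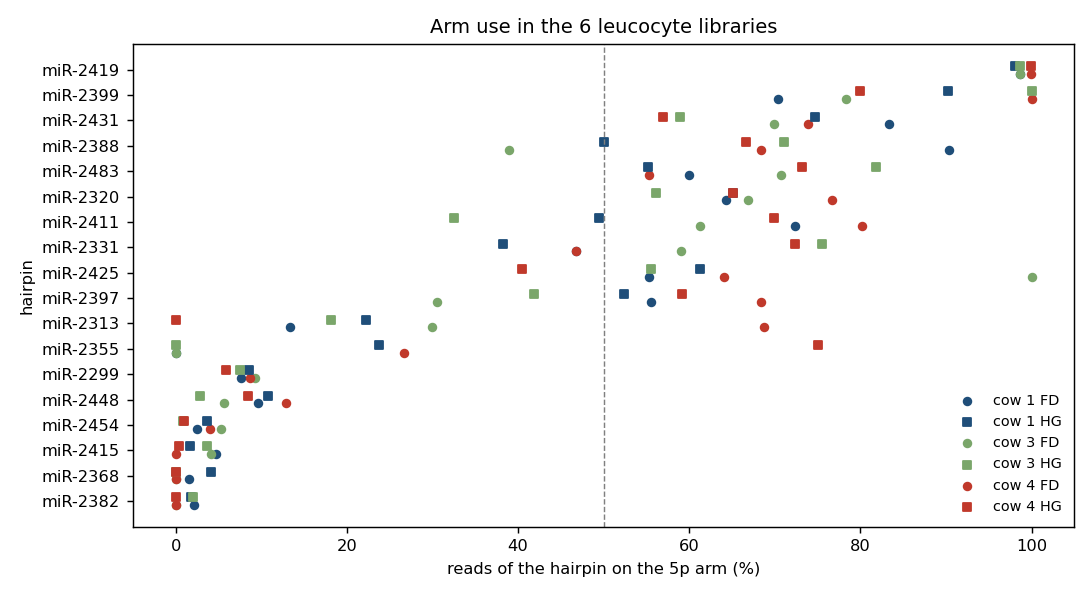
Percent of a hairpin's reads on the 5p arm in each of the 6 leucocyte libraries, for 18 hairpins with at least 100 reads over both arms, coloured by cow, with circles for FD and squares for HG. MiR-2419 lies at 98.0% to 99.9%, the 6 lowest hairpins stay under 13%, and the middle rows cross 50%.

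Some members could not be told from other names. MiR-2319a and miR-2319b had the same counts in every library (261, 157, 68, 198, 117 and 90 undivided reads in leucocytes and 0 in plasma), and the division of shared reads gave each 48.3% of them. MiR-2310 had the same counts as miR-1814c, with 50% of its reads left after division. MiR-2363, miR-2481 and miR-2404 kept 50%, 50% and 33.4% of their reads.

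Most members lie within genes. In ARS-UCD2.0, 104 of the 106 hairpins were matched by name, and 85 of them (81.7%) lay inside a protein-coding gene, strand not considered. The share was 83.6% for the names miR-11970 to miR-12070, 69.7% for the miR-2284/miR-2285 family and 56.2% for the remaining bovine names. Another miRNA gene lay within 10 kb of 9.62% of the members' hairpins and of 48.4% of the remaining bovine hairpins. These are descriptions of the annotation, and their relation to the levels was not tested.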

How the data were processed

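Small RNA of plasma (8 libraries) and leucocytes (6) was made into libraries with the NEXTflex Small RNA-Seq kit and sequenced as single-end reads. Per the authors, reads were demultiplexed with bcl2fastq 2.20, trimmed with Skewer and assigned by sRNAbench to bovine and human miRBase names on UMD3.1. The authors deposited, per library, read counts (a read counts in full at each name it matches), the number of distinct sequences (unique reads, also a count) and estimated counts, in which a read is divided among its names. The RPM values the authors deposited served only to recover the assigned reads behind each library. The authors' series-wide tables were not used.

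The members and lists were chosen with earlier results of these data known. Rounded estimated counts were tested with edgeR 4.0.16 in R 4.3.3 (TMM, robust quasi-likelihood, cow plus group, names with at least 10 reads in total, Benjamini-Hochberg adjustment over all names, threshold 0.05), which was tested on simulated data. DESeq2 1.42.0 was an alternative. Other measures were compared by exact sign-flip tests over cows. P-values of the sign-flip tests and of the fits with a cow block rest on the spread of within-cow differences in these 3 or 4 animals. Other alternatives were further scalings, filters, undivided reads, bovine names only, no cow block and each cow left out.

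Cows were paired in leucocytes by the letters of the sample labels and in plasma by the authors' numbering. Deviations of same-numbered libraries from their diet means correlated at 0.448 to 0.658 in leucocytes, where other pairs reached −0.616 to 0.322. In plasma same-numbered libraries gave −0.398 to 0.312 and other pairs −0.541 to 0.633, so the plasma profiles do not themselves show the pairing.

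Named are the 8 members with the highest mean CPM per sample type, up to 8 per sample type with an unadjusted diet p under 0.05, those in every library of 1 diet and at most 1 of the other, any with at least 10 reads in plasma and 0 in leucocytes (none was found), up to 6 called alike in both tissue comparisons, those with the same counts as another name, and the 6 with most reads from 1 or 2 sequences in a library.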

Additional observations from a re-analysis of the deposited data

Results flagged for a closer look

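In each plasma group of 4 libraries, the library farthest from the rest was set against the group's range (Dixon's ratio at its 95% critical value). Of 49 such groups over the reported measures and named members, 20 had a library apart. Chance gives about 1 in 20 groups, but some members were named for a high count in a single library and a lone count beside 3 zeros always stands apart, so the number of such groups tests nothing. The number of members detected, the member share of reads and the share on few sequences had none. In 10 of the 20 the other 3 libraries were at 0, and 18 of the 20 values rested on 1 or 2 sequences.

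In plasma FD, cow 4 stood apart for miR-2299-3p (97.1 CPM, 300 reads), miR-2399-5p (53.7 CPM), miR-2447 (48.5 CPM) and miR-2320-3p (0.647 CPM, 2 reads). Cow 3 did for miR-2397-5p (276 CPM, 485 reads), miR-2336 (159 CPM, 279 reads from 3 sequences) and miR-2411-3p (1.14 CPM, 2 reads). Cow 2 did for miR-2454-3p (409 CPM, 584 reads from 3 sequences) and miR-2415-3p (1.40 CPM, 2 reads), and cow 1 for miR-2448-3p (7.97 CPM, 3 reads).

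In plasma HG, cow 4 stood apart for miR-2376 (42.4 CPM, 144 reads), miR-2308 (40.9 CPM), miR-2448-3p (34.7 CPM, 118 reads) and miR-2299-5p (17.6 CPM). Cow 3 did for miR-2483-5p (123 CPM, 131 reads), miR-2320-5p (4.70 CPM, 5 reads) and miR-2415-3p (3.76 CPM, 4 reads). Cow 1 did for miR-2419-3p (28.4 CPM, 127 reads) and miR-2399-5p (6.05 CPM, 27 reads), and cow 2 for miR-2425-3p (90.2 CPM, 88 reads).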

How the results depend on the processing

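The counts of members called depended on the processing, and the cause was not tested. In plasma by diet, 0 were called by edgeR under every alternative run and 1 by DESeq2. In leucocytes by diet, 0 became 1 without a filter on low counts, and 0 to 12 with a cow left out. For plasma against leucocytes on FD, 11 became 22 with DESeq2, 3 with library size only, 28 with at least 10 reads in 3 libraries, and 0 to 1 with a cow left out. On HG, 38 became 23 with DESeq2, 17 with RLE size factors, 4 with library size only, 20 without a filter, 21 with undivided read counts, and 0 to 3 with a cow left out. Without the replicate block for cow the calls were 0, 0, 32 and 42 in these 4 comparisons. The mean differences of the other measures are the same without the pairing, but the plasma diet difference of 11.3 members detected then had an exact p of 0.029 in place of 0.13 (0.20 adjusted over 12), and no other of the 12 passed. Library size alone moved the median of all names by 0.41 (log2) in plasma by diet, and by 0.64 and 1.94 between tissues, and RLE moved the tissue medians by −0.28 and 0.43.

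Some directions turned. The leucocyte diet difference in members detected became −2.33 at minimums of 5 or 10 reads (−3 to 6 with a cow left out), and its share on 1 sequence only was 0.45 points. The diet difference in the share on few sequences in plasma was −5.25 to 0.953 points with a cow left out, and the leucocyte diet difference in member share −0.0179 to 0.0306. The tissue difference in member share on FD, −0.0294, became 0.0751 without miR-2419-5p and −0.0755 to 0.0499 with a cow left out. Against the names miR-11970 to miR-12070, the gap in few-sequence values was −6.98 points in plasma and −6.63 in leucocytes, and in leucocytes −2.59 at 10 to 99 reads. MiR-2425-3p by diet in plasma became −0.11 with DESeq2, miR-2454-3p −1.38 without the replicate block, and miR-2447 between tissues on FD 1.47 without it. With a cow left out, the tissue difference of miR-2447 on FD was −10.26 to 0.37 and that of miR-2411-5p on HG −0.39, −0.07 and 1.73.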
